A study of Homo sapiens with 4 samples.

Results

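The genes described here are 10 genes of cystine uptake, glutathione metabolism and the transcription factor NRF2, out of 18917 genes listed in a count table of WT HEK-293T cells and HEK-293T cells that lack THUMPD1. They are SLC7A11, CHAC1, CTH, GSS, GCLC, GCLM, SRXN1, TXNRD1, NQO1 and HMOX1, found by gene symbol, and all 10 were present in the count table. The set was chosen by the KO against WT fold change of SLC7A11, whose rise raised the question of whether NRF2 target genes share it. The values of these genes in that comparison are therefore given as a description, without a p-value. THUMPD1 is the RNA-binding partner with which NAT10 acetylates cytidine in leucine and serine tRNAs. RNA was sequenced from WT cells and from THUMPD1 KO cells, an immortalized human embryonic kidney line that the sample labels call HEK293, with 2 libraries per genotype. Both genotypes were grown in DMEM with 10% serum and 2 mM glutamine and neither received a further treatment. The KO cells were made by cotransfection of a pair of CRISPR-Cas9 guides followed by single-cell sorting, so that genotype and clone cannot be told apart. No source used here says whether the 2 libraries of a genotype came from separate cultures, so p-values measure only the spread between these libraries, which may be technical.

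Cystine, the oxidized form of cysteine, enters cells through system xc-, in which SLC7A11 is the transporting chain and SLC3A2 the chain that anchors it in the membrane. Cysteine then joins glutamate through glutamate-cysteine ligase (GCLC and GCLM), and glutathione synthetase (GSS) adds glycine to give glutathione, the main small thiol of the cell. NRF2, encoded by NFE2L2, is held down by KEAP1 and, once released by oxidants, pairs with small MAF proteins and binds antioxidant response elements near many of these genes. SLC7A11, CHAC1 and CTH are also known targets of ATF4, the transcription factor of the integrated stress response, which binds C/EBP-ATF response elements.

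The libraries held between 7875722 and 11362363 counts, and a count of 3 was worth 0.259 to 0.391 CPM (counts scaled to a common library size, after edgeR's TMM method). The targeted gene, THUMPD1, was counted 356 and 468 times in WT and 71 and 58 times in KO libraries and fell by 2.93 on the log2 scale (standard error 0.17, adjusted p = 1.27e-12). In such bulk RNA, fewer cells that express a gene and less of its RNA per cell cannot be told apart. Among marker genes of embryonic kidney, PAX2, SALL1 and EYA1 had between 51 and 961 counts in every library, whereas LHX1 had 6 counts in each WT library and 37 and 27 in the KO libraries. Markers of leukocytes, hepatocytes, erythroid cells, fibroblasts and endothelium (6 genes) had at most 9 counts in any library, and HBB had none. The test covered the 13128 genes that reached 1 CPM in 2 or more libraries, and all 10 genes of the set passed this filter.

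SLC7A11, the cystine transporter, was 1.97-fold higher in THUMPD1 KO cells, and HMOX1, which breaks down heme, was 1.50-fold higher. The enzymes of glutathione synthesis and most other NRF2 targets of the set showed smaller differences, of which none passed the threshold. The threshold used for all genes (adjusted p under 0.05, edgeR's quasi-likelihood test) serves for the set as a descriptive mark and not as a test. SLC7A11, CHAC1 and HMOX1 lay past it in the higher direction and are called higher in that sense, and GSS, GCLC, GCLM, CTH, SRXN1, TXNRD1 and NQO1 did not pass it. The set thus held 3 genes past the mark higher and 0 lower, beside 8.79% and 12.1% of all tested genes. Both KO libraries lay above both WT libraries in 6 of the 10 genes, against 30.4% of all tested genes. In 1 of the 10 genes, TXNRD1, both lay below, against 30.0% of all tested genes. For TXNRD1 this was nearly a tie, with WT replicate 2 at 122.2 CPM and KO replicate 1 at 122.1 CPM. The median log2 fold change was 0.10 over the 10 genes and 0.01 over all tested genes. Since the rise of SLC7A11 chose the set, nothing is read from these counts.

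**Figure D1:**
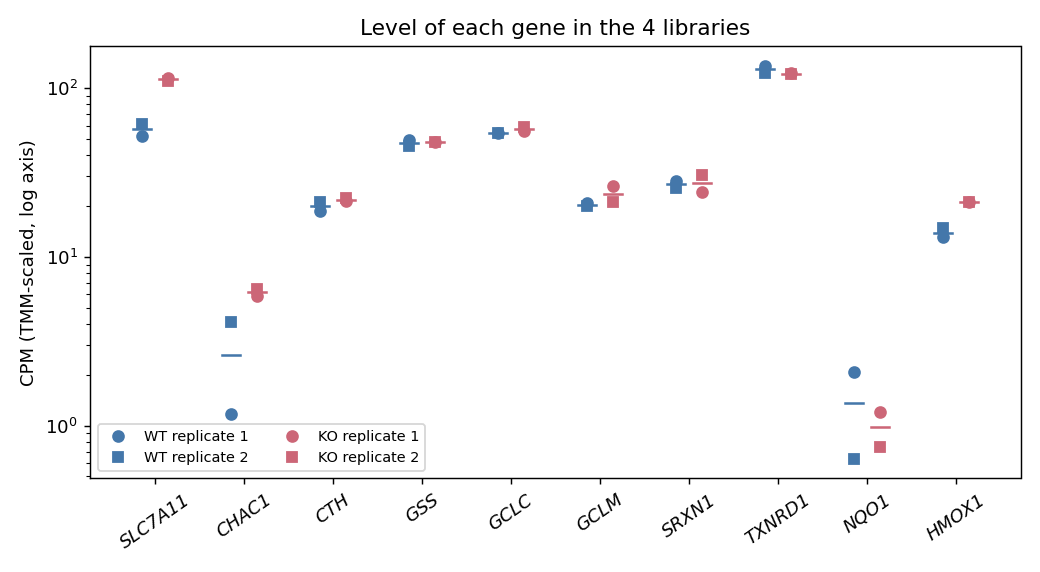
Level of each gene in CPM on TMM-scaled library sizes (log axis) in the 2 WT and 2 KO libraries, with circles for replicate 1, squares for replicate 2 and a bar for the mean of each genotype. SLC7A11 and HMOX1 show 2 close KO libraries above both WT libraries, whereas the WT libraries of CHAC1 lie far apart and NQO1 has the lowest level in KO cells.

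SLC7A11, the cystine-glutamate exchanger, was counted 400 times in replicate 1 and 677 times in replicate 2 of WT cells, and 1329 and 1176 times in those of KO cells. On the CPM scale these were 52.2 and 61.6 in WT libraries and 115 and 110 in KO libraries. The groups did not overlap, and the lower KO library stood well above the higher WT library. WT cells averaged 56.9 ± 6.67 CPM and KO cells 113 ± 3.09 CPM (SD over 2 libraries each), and the fitted log2 fold change was 0.98 with a standard error of 0.09. Of log2 fold changes over the 13128 genes tested, 345 were larger. Fits with 1 library left out gave log2 fold changes between 0.87 and 1.11, which describe the spread of a value that the set was chosen on. The gene lies on the minus strand of chromosome 4, at chr4:138164097-138242349 of GRCh38 (GENCODE 44), with 12 exons in its canonical transcript. SLC3A2, named here for its role, had 772 and 1190 counts in WT and 1224 and 1205 in KO libraries, and its log2 fold change of 0.06 (standard error 0.08, adjusted p = 0.613) did not pass the test. There were 0.518 and 0.569 counts of SLC7A11 per count of SLC3A2 in the WT libraries and 1.09 and 0.976 in the KO libraries.

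CHAC1, a cytosolic enzyme that breaks down glutathione, had the highest log2 fold change of the set, 1.15 (standard error 0.41), from few counts. Its counts were 9 and 45 for WT replicates 1 and 2, and 68 and 69 for the KO libraries. On the CPM scale WT replicate 1 was at 1.17 (95% exact Poisson interval 0.537 to 2.23) and WT replicate 2 at 4.09 (2.99 to 5.48), so that the WT libraries differed from each other by more than counting error. The KO libraries were at 5.87 (4.56 to 7.45) and 6.48 CPM (5.04 to 8.20). WT replicate 2 stood 3.49-fold above WT replicate 1, more than the 2.22-fold difference fitted between the genotypes. Without WT replicate 1 the log2 fold change of CHAC1 was 0.59 and without WT replicate 2 it was 2.38, and the call was lost in 3 of the 4 fits with a library left out, with DESeq2 and with limma-voom. The intervals hold for counting error alone, because molecular identifiers were not used to count molecules as far as the sources say.

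CTH, cystathionine gamma-lyase, makes cysteine inside the cell from cystathionine and so offers a source that does not need cystine uptake. It had 144 and 231 counts in WT and 247 and 237 in KO libraries. WT cells averaged 19.9 ± 1.58 CPM and KO cells 21.8 ± 0.649 CPM (SD over 2 libraries each), and the log2 fold change was 0.12 (standard error 0.15). The WT libraries, at 18.8 and 21.0 CPM, differed from each other by more than the lower KO library, at 21.3 CPM, differed from the higher WT library.

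The enzymes of glutathione synthesis had log2 fold changes from 0.01 to 0.22. GCLC, the catalytic subunit of glutamate-cysteine ligase and the rate-limiting step, had 54.1 and 54.5 CPM in WT and 55.7 and 59.2 CPM in KO libraries, and its log2 fold change was 0.08 (standard error 0.10). GSS, which completes glutathione, had 49.6 and 45.5 CPM in WT and 47.7 and 48.0 CPM in KO libraries, and its log2 fold change was 0.01 (standard error 0.11). Its KO libraries lay between its WT libraries. GCLM, the modifier subunit that eases feedback inhibition of the ligase, had 20.7 and 20.1 CPM in WT and 26.3 and 21.1 CPM in KO libraries. Its log2 fold change was 0.22 (standard error 0.16), and most of it came from KO replicate 1, since it was 0.05 without that library.

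Of the remaining NRF2 targets of the set, SRXN1, TXNRD1, NQO1 and HMOX1, only HMOX1 was called. SRXN1, sulfiredoxin, which restores overoxidized peroxiredoxins, had 28.3 and 25.5 CPM in WT and 24.3 and 30.7 CPM in KO libraries. The KO values lay on either side of the WT values, and the log2 fold change was 0.03 (standard error 0.15). TXNRD1, the cytosolic thioredoxin reductase, was the most abundant gene of the set by count, with 1042 and 1343 counts in WT and 1414 and 1294 in KO libraries. Its 136 and 122 CPM in WT and 122 and 122 CPM in KO libraries gave a log2 fold change of -0.08 (standard error 0.08), which was 0.01 when libraries were scaled by size alone. NQO1, a quinone reductase often used as a readout of NRF2, had only 16 and 7 counts in WT and 14 and 8 in KO libraries. The 95% exact Poisson intervals of the KO libraries were 0.661 to 2.03 and 0.324 to 1.48 CPM. They overlapped those of the WT libraries, 1.19 to 3.39 and 0.256 to 1.31 CPM. These intervals cover counting error alone, and the WT libraries were at 2.09 and 0.637 CPM. The log2 fold change of NQO1 was -0.38 (standard error 0.71), so a difference was neither shown nor excluded.

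HMOX1, heme oxygenase 1, which opens the heme ring and releases iron, had 100 and 163 counts in WT and 244 and 224 in KO libraries. These were 13.0 and 14.8 CPM in WT and 21.1 and 21.0 CPM in KO libraries, without overlap. The log2 fold change was 0.59 (standard error 0.17), and leaving out single libraries gave values between 0.50 and 0.69. HMOX1 kept its direction in all of these fits but was not called with DESeq2, nor without WT replicate 1, KO replicate 1 or KO replicate 2, which leave 1 genotype with a single library. Expression of HMOX1 is raised by several factors besides NRF2.

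**Figure D2:**
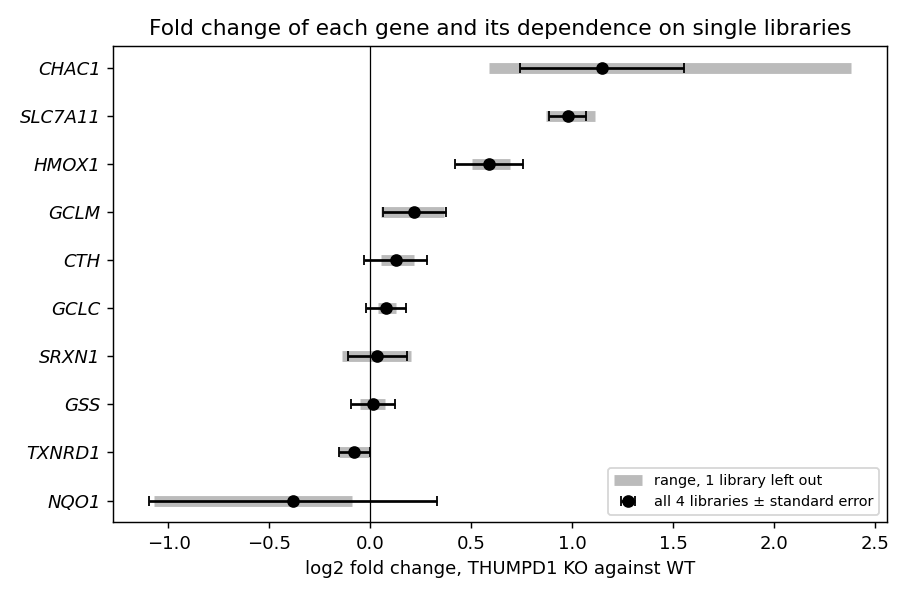
Log2 fold change of each gene in THUMPD1 KO against WT cells, with dots and whiskers for the fit of all 4 libraries and its standard error and grey bars for the range over the fits with 1 library left out (2 fits for NQO1, which passed the filter in those alone). The bars of SLC7A11 and HMOX1 stay above 0.5, that of CHAC1 runs from 0.59 to 2.38, and those of GSS and SRXN1 cross 0.

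Ratios of counts within a library do not depend on how libraries are scaled. The reference was the summed count of GSS, GCLC, GCLM, SRXN1 and TXNRD1, chosen after their values were seen. There were 0.181 and 0.230 counts of SLC7A11 per reference count in the WT libraries and 0.416 and 0.394 in the KO libraries, a ratio of means of 1.97. For HMOX1 the ratios were 0.0452 and 0.0554 in WT and 0.0763 and 0.0750 in KO libraries, 1.50-fold higher in the mean. Set against GCLC alone, SLC7A11 was at 0.964 and 1.13 in WT and at 2.06 and 1.87 in KO libraries. In each of these ratios both KO libraries were above both WT libraries. None of the reference genes was called, so the ratios largely repeat the fitted fold changes and are no further evidence.

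**Figure D3:**
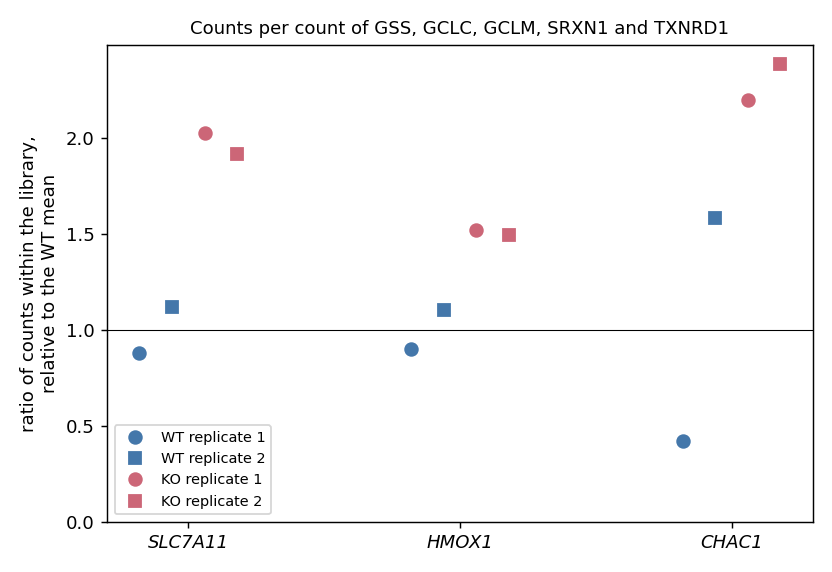
Counts of SLC7A11, HMOX1 and CHAC1 per summed count of GSS, GCLC, GCLM, SRXN1 and TXNRD1 in the same library, divided by the mean of the WT libraries (linear axis from 0), with each point 1 library. The KO libraries of SLC7A11 lie near 2 and those of HMOX1 near 1.5, while the WT libraries of CHAC1 lie far apart.

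Per kilobase of canonical transcript (GENCODE 44), the order of the levels in WT cells was TXNRD1, GSS, GCLC, SRXN1, CTH, HMOX1, SLC7A11, GCLM, CHAC1 and NQO1. TXNRD1 had 33.4 ± 2.51, GSS 24.9 ± 1.50 and GCLC 14.3 ± 0.0715 CPM per kb (SD, n = 2). SRXN1, CTH and HMOX1, at 10.6 ± 0.789, 9.52 ± 0.758 and 8.97 ± 0.815 CPM per kb, followed close to each other, and neighbours among them did not differ beyond their summed SD. SLC7A11 was at 5.90 ± 0.692 CPM per kb in WT and at 11.7 ± 0.321 CPM per kb in KO cells, where it stood above SRXN1 at 10.9 ± 1.80 and CTH at 10.4 ± 0.311 CPM per kb, though for SRXN1 by less than its SD. At the low end CHAC1 and NQO1, at 1.73 ± 1.36 and 0.540 ± 0.407 CPM per kb in WT cells, did not differ beyond their summed SD. HMOX1 moved to 13.5 ± 0.0197 CPM per kb in KO cells. The transcripts behind the authors' counts are not stated, so these levels depend on the transcript taken.

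HMOX1 and NQO1 lie on chromosomes 22 and 16, where most genes were lower in the KO libraries. The median log2 fold change was -0.42 over 311 tested genes of chromosome 22 and -0.44 over 573 of chromosome 16, and from -0.06 to 0.10 on the other 21 chromosomes with at least 10 tested genes. HMOX1, at chr22:35380361-35394214 of GRCh38, rose against that shift and stood 1.0 above the median of its chromosome, with 5 genes of chromosome 22 above it. NQO1, at -0.38 (standard error 0.71), lay 0.06 above the median of chromosome 16. SLC7A11 was 0.88 above the median of chromosome 4 and CHAC1 was 1.09 above that of chromosome 15, with 15 and 4 genes above them. The other 6 genes lay from -0.09 to 0.20 from the medians of their chromosomes. The part of these shifts in the values of single genes was not tested.

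Promoter sequences were taken from RefSeq (GRCh38.p14) as 250 bases before to 50 bases after the start of a gene, and 7 of the 10 genes were matched by symbol. SLC7A11, GSS and HMOX1 were not matched. The core of the antioxidant response element, TGACNNNGC on either strand, was found in the promoters of GCLM and TXNRD1. It was also found in 13.6% of 27305 promoters of that length (14.8% of those of tested genes). A core of the C/EBP-ATF response element, TGATGNAA on either strand, was found in the promoter of CHAC1 alone among the 7, and in 3.67% of all promoters (1.65% of those of tested genes). The matches are shown for each gene that had one, and a link between these cores and the fold changes was not tested. Capitals mark the matched bases, and every window runs 5′ to 3′ on the strand of its gene.
CHAC1, C/EBP-ATF core on the opposite strand, chr15:40953254-40953277: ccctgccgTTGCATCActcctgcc
GCLM, antioxidant core on the opposite strand, chr1:93909448-93909472: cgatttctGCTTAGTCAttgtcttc
TXNRD1, antioxidant core on the gene's strand, chr12:104215672-104215696: acgggctaTGACTTCGCtgttgtca
TXNRD1, antioxidant core on the opposite strand, chr12:104215763-104215787: gtccttcgGCTCCGTCAgttcccac
A match of letters is not a bound site, and the absence of these letters from a window of 300 bases says nothing of elements farther away.

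The coding sequences were also examined for the leucine codons UUA, UUG, CUA and CUU, since the study concerns leucine and serine tRNAs. In SLC7A11, 28 of 501 codons (5.59%) were of this kind, close to the upper quartile of 5.60% over 12927 tested genes with a coding sequence, whose median was 3.73%. CTH had the highest share of the set, 7.41%, and GCLM followed with 6.93%. HMOX1, at 2.08%, and CHAC1, at 2.70%, were below the median. The 3 called genes thus lay on both sides of the median share.

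Genes of the same pathways outside the set were taken from 7 lists compiled by hand from textbook knowledge. Earlier results of these data were known when the lists were drawn up, so their counts are no independent evidence. Of their 130 genes, 127 were in the count table and 109 were tested. Of the 109, 13 were called higher and 22 lower (adjusted p under 0.05, edgeR's quasi-likelihood test over all tested genes), and 74 were not called, with a median log2 fold change of 0.00. Among all tested genes 8.79% were called higher and 12.1% lower, and the calls in each list below stand beside those shares. With libraries scaled by size alone, which moved the median of all genes from 0.01 to 0.09, the split was 18 higher and 17 lower. On chromosomes 16 and 22, 9 of 13 tested list genes were called lower and 1 was called higher, as were 477 and 7 of all 884 tested genes there. On the other chromosomes 12 of 96 list genes were higher and 13 lower (12.5% and 13.5%), against 9.33% and 9.11% of all tested genes placed there. CHAC2, GPX2, GPX8, GSTT1, TXNIP and NCOA4 were listed at 0 in all 4 libraries, and since NCOA4 is used by most cells, a 0 in this table does not show that a gene was silent.

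**Figure D4:**
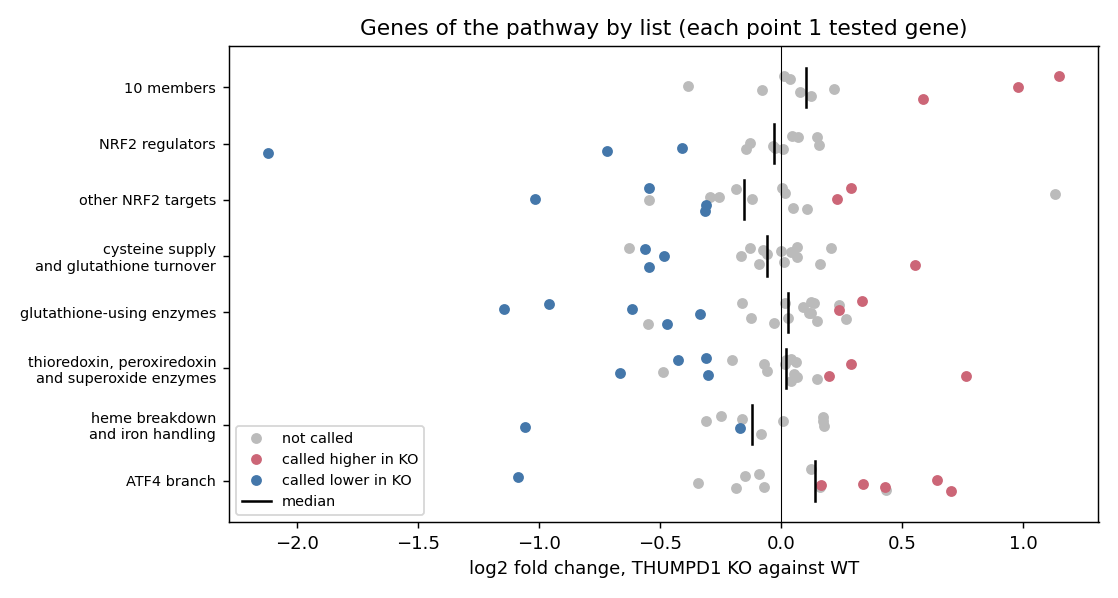
Log2 fold change in THUMPD1 KO against WT cells for the 10 genes of the set and for the tested genes of each pathway list, with each point 1 gene, vertical bars for medians and colour for calls at an adjusted p under 0.05. Calls in both directions occur in most lists, and in this fit the regulators of NRF2 and the heme and iron genes hold only lower ones.

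Of 12 regulators of NRF2, 0 rose and 3 fell, beside 8.79% and 12.1% of all tested genes, and the median log2 fold change was -0.03. Those that fell were the small MAF genes MAFF and MAFK and the ubiquitin ligase subunit RBX1, of which MAFF and RBX1 lie on chromosome 22. NFE2L2 was counted 358 and 520 times in WT and 568 and 529 times in KO libraries, and its log2 fold change was 0.07 (standard error 0.11, adjusted p = 0.686). KEAP1, which marks NRF2 for degradation together with CUL3 and RBX1, was at -0.03 (standard error 0.10, adjusted p = 0.88). CUL3 was at 0.04, BACH1, a repressor at the same elements, at 0.16, and the related factor NFE2L1 at -0.13. SQSTM1, which sequesters KEAP1, was at -0.15, and GSK3B and BTRC, which act in a KEAP1-independent route of degradation, were at 0.15 and 0.01. None of these passed the test. MAFK (231 and 292 counts in WT, 195 and 186 in KO libraries) fell by 0.72 on the log2 scale (standard error 0.15, adjusted p = 0.00115). MAFF, with 37 and 31 counts in WT and 8 and 11 in KO libraries, fell by 2.12 (standard error 0.56, adjusted p = 0.00766), and its call was lost without KO replicate 1. MAFG, the third small MAF gene, was at -0.03 (standard error 0.14). RBX1 fell by 0.41 (standard error 0.09, adjusted p = 0.00148), close to the median of -0.42 on its chromosome.

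Of 24 other NRF2 targets, 16 were tested, and 2 were higher and 4 lower, beside 8.79% and 12.1% of all tested genes, with a median log2 fold change of -0.15 against 0.01 over all tested genes. ABCC1, an exporter of glutathione conjugates on chromosome 16 (1010 and 1442 counts in WT, 997 and 1000 in KO libraries) fell by 0.55 on the log2 scale (standard error 0.08, adjusted p = 1.11e-05). AIFM2, which reduces coenzyme Q and limits lipid peroxidation, fell by 1.02 (standard error 0.36, adjusted p = 0.0431), but that call was lost with DESeq2, with scaling by library size alone and with each library left out. Further calls, named after their values were seen, were rises of the pentose phosphate enzymes TALDO1 and TKT by 0.29 and 0.23 and a fall of UGDH, which makes UDP-glucuronate, by 0.32. UGDH lost its call with each library left out and under 4 of the 7 alternatives. CBR3, at 1.13 (standard error 0.50, adjusted p = 0.109), had 6 and 30 counts in WT and 40 and 50 in KO libraries and was not called. AKR1B10, AKR1C2, AKR1C3, ABCC2, ABCC3 and OSGIN1 had too few counts to be tested, with at most 15 in any library, and AKR1C1, UGT1A6 and, of the glutathione transferases, GSTM2 were not analysed here.

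In cysteine supply and glutathione turnover, 1 of 17 tested genes was higher and 3 were lower, beside 8.79% and 12.1% of all tested genes, and the median log2 fold change was -0.06. GGCT, gamma-glutamylcyclotransferase, which acts on the gamma-glutamyl products of glutathione breakdown (352 and 537 counts in WT, 797 and 750 in KO libraries) rose by 0.55 on the log2 scale (standard error 0.10, adjusted p = 0.000195). SLC1A1, a glutamate transporter that also takes up cysteine, fell by 0.54 (standard error 0.17, adjusted p = 0.023), a call that was lost with DESeq2 and without WT replicate 2 or KO replicate 1. CNDP2, a peptidase that splits cysteinylglycine, fell by 0.56 (standard error 0.13, adjusted p = 0.00252), and was not called without KO replicate 1. MPST, on chromosome 22, was the other lower gene. CBS, which feeds cystathionine to CTH and is named here for that role, was at 0.01 (standard error 0.06).

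Of 21 tested glutathione-using enzymes, 2 were higher and 5 lower (8.79% and 12.1% over all tested genes), with a median log2 fold change of 0.03. The microsomal transferase MGST1 (267 and 337 counts in WT, 148 and 179 in KO libraries) fell by 1.14 on the log2 scale (standard error 0.16, adjusted p = 9.57e-06). The cytosolic transferases GSTP1 and GSTO2 fell by 0.62 and 0.96 (standard errors 0.07 and 0.15, adjusted p = 2.67e-07 and 3.33e-05). None of these 3 lies on chromosome 16 or 22. The other calls were MGST3 and GLO1, which were higher, and GLRX5 and HAGH, which were lower. GSR, which regenerates reduced glutathione, was at -0.03 (standard error 0.10).

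Of 19 tested thioredoxin, peroxiredoxin and superoxide genes, 3 were higher and 4 lower (8.79% and 12.1% over all tested genes), with a median log2 fold change of 0.02. The methionine sulfoxide reductases moved apart, with MSRB3 higher by 0.76 (standard error 0.15, adjusted p = 0.000582) and MSRB1, on chromosome 16, lower by 0.66 (standard error 0.15, adjusted p = 0.00223), while MSRB2 was at 0.02. TXN and PRDX2 were also higher, by 0.29 and 0.20, and TXN2, NXN and PRDX5 lower. PRDX1 was at 0.06 (standard error 0.07).

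Of 10 tested genes of heme breakdown and iron handling, 0 were higher and 2 lower (8.79% and 12.1% over all tested genes), with a median log2 fold change of -0.12. With scaling by library size alone, and with limma-voom, 1 was higher and 1 lower. HMOX2, the constitutive heme oxygenase on chromosome 16 (385 and 499 counts in WT, 241 and 267 in KO libraries) fell by 1.06 on the log2 scale (standard error 0.13, adjusted p = 1.64e-06). There were 0.260 and 0.327 counts of HMOX1 per count of HMOX2 in the WT libraries and 1.01 and 0.839 in the KO libraries. The ferritin chains FTH1 and FTL were at -0.17 and -0.16 (standard errors 0.06 and 0.07, adjusted p = 0.0431 and 0.0835). FTH1 was thus called lower, but not with scaling by library size alone, by the upper quartile or by quantiles, nor in 3 of the 4 fits with a library left out, and both ferritin genes have processed pseudogenes that may share their reads.

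Of 14 genes of the ATF4 branch, 5 were higher and 1 lower (8.79% and 12.1% over all tested genes), with a median log2 fold change of 0.14. DDIT4, an inhibitor of mTORC1 (515 and 683 counts in WT, 1234 and 1100 in KO libraries) rose by 0.70 on the log2 scale (standard error 0.09, adjusted p = 1.25e-06). ATF3, a stress-induced transcription factor, rose by 0.64 (standard error 0.13, adjusted p = 0.000875). SESN2, an inhibitor of mTORC1 that answers to leucine, and STC2, a secreted stress protein, were higher by 0.43 and 0.34, and ATF4 itself by 0.16, a call that was lost with any library left out. ATF4 lies on chromosome 22, where the median was -0.42. NUPR1, on chromosome 16, was the lower gene, at -1.09 (standard error 0.15, adjusted p = 5.90e-06). DDIT3, TRIB3, ASNS, PSAT1, PHGDH, SLC7A5, VLDLR and CEBPB were not called, at values from -0.34 to 0.43. Genes of this list had already been examined in these data when it was drawn up, so here too the counts are no independent evidence.

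Among the 109 tested list genes, MSRB3, ATF3 and DDIT4 had the profiles nearest to that of SLC7A11, by the Euclidean distance between centred log2 CPM over the 4 libraries. The distances were 0.282, 0.361 and 0.381. With 2 libraries per genotype, such a distance mostly reads the difference between the genotypes. Genes picked for likeness to SLC7A11 are higher in the KO libraries by that choice, so calls of these 3 genes are no further evidence.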

How the data were processed

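RNA of 2 WT and 2 THUMPD1 KO libraries was analysed, with genotype and replicate taken from the sample labels. The table deposited by the authors holds unnormalized counts, as integers, for each gene symbol. The labels name a Zymo RiboFree total RNA kit and the build hg19, whereas the methods of the study describe another kit, 3 samples per genotype and STAR with RSEM on GRCh38 for its RNA-seq, so how these counts were made, and whether strand was used, is not given in the sources used here. A deposited table of the authors' own comparison (fold changes and p-values) was not used.

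Counts were fitted with edgeR 4.0.16 in R 4.3.3 (glmQLFit and glmQLFTest, TMM, at least 1 CPM in at least 2 libraries) and adjusted by Benjamini-Hochberg over all 13128 tested genes, with a threshold of 0.05. Each adjusted p printed is from this fit unless another tool is named. Standard errors were the absolute log2 fold change divided by the square root of F. With 2 against 2 libraries the smallest two-sided p of an exact permutation test is 0.333. Replicates differed by more than sampling noise (chi-square over degrees of freedom 4.08 for WT and 6.90 for KO), and each library was kept. Alternatives were DESeq2 1.42.0 and limma-voom (limma 3.58.1), other scalings and filters, a replicate block and leaving out each library. The fits were tested on simulated data. Reads of paralogs (the GST and AKR1C families) and of overlapping genes may be shared, so their counts are uncertain.

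The members and lists were chosen with earlier results of these data known. Named were all members, every tested NRF2 regulator, and of each other list up to 5 called genes that differed by 0.5 or more on the log2 scale, or, where fewer than 2 qualified, also the 2 most abundant; others were named after their values were seen. Some genes of the lists are counted but not reported here by name. Genes were placed by GENCODE 44 on GRCh38, 12167 of the tested genes by symbol and 846 by a RefSeq synonym. Python 3.11.15, pandas 2.3.3, NumPy 2.4.6 and matplotlib 3.10.9 were used.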

Additional observations from a re-analysis of the deposited data

How the results depend on the processing

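The set was chosen on these values, so its calls are a description. With DESeq2, 1 of the set was called higher in place of 3, and 645 genes in all in place of 1154. With libraries scaled by size alone 2081 genes were called higher and 1158 lower, against 1154 and 1594 with TMM, and TXNRD1 turned from -0.08 to 0.0050. With each library left out, the higher calls in the set ran from 1 to 3, and those in the pathway lists from 8 to 13 higher and from 14 to 20 lower, against 13 and 22. The lowest of these list counts were those without KO replicate 1. Over all genes they ran from 606 to 1106 higher and from 1011 to 1493 lower. GSS ran from -0.051 to 0.071 and SRXN1 from -0.14 to 0.20, with negative values for GSS (-0.051) and SRXN1 (-0.04) without WT replicate 2 and for SRXN1 without KO replicate 2, so neither kept its direction. In these fits the genotype with 1 library is assumed to vary like the other. The causes were not tested. The filter on at least 10 counts in every library left out CHAC1 and NQO1.

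The replicate numbers gave no sign of pairing (correlation of the deviations of WT replicate 1 and KO replicate 1 across genes 0.02). With the replicate number as a block, 3 genes of the set were called higher and 0 lower, 13 list genes higher and 25 lower, and 1396 and 1826 genes in all.

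Depth limits NQO1, at 7 to 16 counts per library, and CHAC1 is limited by the spread between its WT libraries. Protein and glutathione were not analysed here.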
